A study of Homo sapiens with 24 samples.

Results

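The highest and the lowest dose of azacitidine (AZA) were compared within 3 human T-cell lines by RNA-seq, without use of an untreated library. The comparison took 6 of the 24 libraries of the series, 3 at the highest and 3 at the lowest dose, and paired them by cell line. HH, a cutaneous T-cell lymphoma line, had received 50 nM at the lowest and 250 nM at the highest dose. The lines PF382, from a T-cell acute lymphoblastic leukemia, and TLOm1, from an adult T-cell leukemia, had received 125 nM and 500 nM. The top dose was thus 5-fold the bottom dose in HH and 4-fold in the other lines, so that the lowest dose of PF382 and TLOm1 equalled the middle dose of HH. The exposure of all 6 cultures lasted 96 h, with a fresh addition of AZA each 24 h, and no other agent or genetic change is named for any of them. The 3 libraries at the middle dose (125 nM in HH, 250 nM in PF382 and TLOm1) served to ask whether a change ran one way along the doses. They also entered fits of the spread and of the slope on dose, which are named as such below. The rest of the series holds the untreated libraries and a set treated with decitabine, the deoxyribose relative of AZA, at 5, 12.5 and 25 nM in each line.

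AZA is a cytidine analog with a nitrogen in place of a ring carbon. Cells phosphorylate it by uridine-cytidine kinase, place most of it in RNA, and convert a part to the deoxynucleotide that enters DNA, where it traps DNA methyltransferase 1 and lowers methylation as cells divide. Genes of the germline and of the cancer-testis group are held silent in somatic cells largely by methylated CpG-rich promoters and are known to be transcribed when methylation is lost. Incorporation into RNA is known to disturb RNA processing and protein synthesis, so an effect of dose may be read both in methylation-silenced genes and in genes that respond to metabolic or translational stress.

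Each line contributed 1 library per dose, so the lines served as replicates. Nothing in the labels says that doses were separate experiments, so the p-values cover the spread between these libraries and no more. Total counts lay between 16175077, in HH at the lowest dose, and 25535937. With no count in that smallest library, up to 3 counts or 0.185 CPM (counts per 1000000 counts of the library) remain possible by counting error alone. Of 15 T-cell defining markers 13 could be tested, and their summed level lay between 1714 and 2587 CPM over the 6 libraries. In TLOm1 CD3D was at 0 CPM at the lowest and 0.0848 CPM at the highest dose, while CD4 was abundant (999 and 761 CPM). CD3E was present in that line, with its levels given below. The marker lists of B cells, myeloid, epithelial, stromal and erythroid cells each summed to 1.61 to 452 CPM in a library, the top of that range being the kinase gene BLK in HH (445 and 449.6 CPM). Their part in the results was not tested. In bulk RNA, fewer cells of a kind and less RNA per cell cannot be told apart.

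At the highest dose a small set of germline genes, the Notch feedback gene NRARP and the amino acid transporter gene SLC7A5 stood above the lowest dose. Genes of lipid synthesis and of glycolysis stood below it. With edgeR's quasi-likelihood test and Benjamini-Hochberg adjustment, 14 of 14330 genes tested (0.0977%) were higher and 5 (0.0349%) were lower. The 6 libraries in 3 pairs leave 2 residual degrees of freedom. At an unadjusted p under 0.05, 1253 of the 14330 genes were higher and 1121 lower. In all 3 lines 3325 of them were higher and 2741 lower, whether or not they passed. The groups of highest and lowest dose did not overlap for 431 (3.01%). Counts over gene lists and statements of overlap below stand beside these numbers, and small counts of a list may lie near them. When the 3 middle-dose libraries entered the model to estimate the spread (called the 9-library test from here on), the same contrast gave 766 of 15932 genes higher (4.81%) and 656 lower (4.12%). DESeq2 on the 6 libraries gave 316 higher (2.21%) and 239 lower (1.67%). All 19 genes of the 6-library test were among the calls of both. Both draw the contrast from the same 6 libraries, and the middle doses add mainly to the estimate of spread. Calls of the 9-library test or DESeq2, here and below, are therefore not separate evidence. The count rested on TLOm1 more than on the other lines, because leaving out that line left 1 gene higher and 0 lower (PNMA5), against 13 and 3 without HH and 11 and 2 without PF382. Of the 19 genes 9 were among the calls without HH, 6 without PF382 and 1 without TLOm1. Without the pairing by line no gene passed, although 84 were higher and 15 lower at an unadjusted p under 0.05.

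Most genes moved little. Over the 11093 genes with a mean of at least 5 CPM, the median absolute log2 ratio of highest to lowest dose was 0.195 in HH, 0.156 in PF382 and 0.225 in TLOm1. Changes of more than 1 on the log2 scale in all 3 lines were seen for 34 of these genes upward and 6 downward. Single lines held many more, with 276 up and 218 down in HH, 306 and 59 in PF382, and 385 and 96 in TLOm1. The middle dose lay between the other doses in 56.6% of all pairs of gene and line. It did so in 41 of 42 pairs for the genes called higher and in 15 of 15 for those called lower. These genes were called on a gap between the outer doses, which favors a middle dose between them, so the counts are not separate evidence. The calls include LOC100506670 and LOC100652751, whose counts follow those of SLC7A5 and SCD as given below.

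Of the 14 genes that rose, 3 were on the cancer-testis and germline list (MAGEA4, MAEL and PAGE5). PNMA5, a member of the paraneoplastic Ma antigen family, had the smallest adjusted p. Its level at the lowest, middle and highest dose was 0.433, 5.97 and 45.1 CPM in HH, 2.7, 33.6 and 166 CPM in PF382 and 0.658, 6.65 and 35.3 CPM in TLOm1, and the untreated libraries of HH, PF382 and TLOm1 held 0.123, 0.262 and 0.122 CPM. Every library at the highest dose lay above every library at the lowest (log2 fold change 5.996 ± 0.18 (SE), adjusted p = 0.00223). ACRC, which encodes the germ cell nuclear acidic protein, was at 2.1, 4.8 and 30.4 CPM in HH, 6.07, 40.9 and 182 CPM in PF382 and 3.17, 15.8 and 53.03 CPM in TLOm1. Its groups did not overlap either (log2 fold change 4.34 ± 0.23 (SE), adjusted p = 0.0172). The X-linked PAGE2B was all but silent at the lowest dose, with 5 counts over the 3 libraries against 586 at the highest, a ratio of 105 (95% exact interval 44.9 to 326, counting error only). In CPM it went from 0.124 to 4.72 CPM in HH, from 0.0392 to 7.34 in PF382 and from 0.0822 to 12.1 in TLOm1 (log2 fold change 6.63 ± 0.44 (SE), adjusted p = 0.0264).

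**Figure D1:**
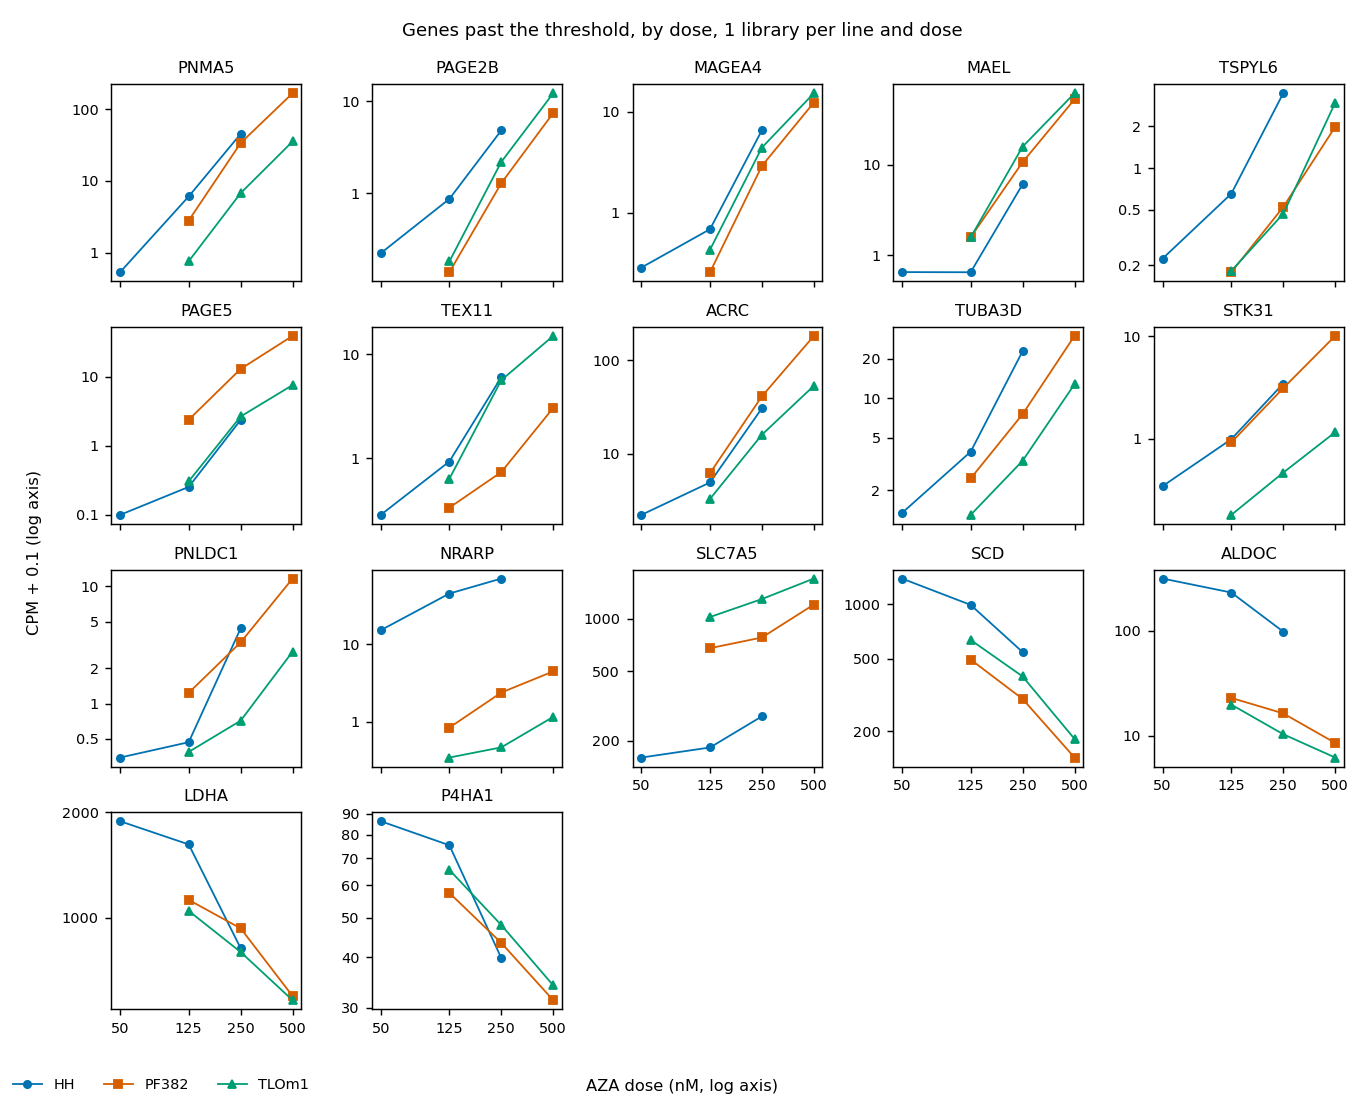
CPM + 0.1 on a log axis against AZA dose in nM on a log axis for the 17 genes with a symbol that passed the threshold, 1 point for 1 library, with the lines HH, PF382 and TLOm1 told apart by color and marker. PNMA5 climbs from 0.433 to 45.1 CPM in HH, while the lines of SCD, ALDOC, LDHA and P4HA1 slope downward in every cell line.

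The promoters of these genes are shown because the genes called higher share in most cases a short motif. Windows of 250 bases before to 50 bases after the start were taken from RefSeq (GRCh38.p14), where 13 of the 14 genes called higher had an entry. The E-box CACGTG, searched on both strands and in capitals below, stood in the windows of 8 of these 13 (61.54%): PNMA5, ACRC, PAGE2B, MAEL, STK31, PNLDC1, SLC7A5 and PAGE5. It stood in 8.775% of the 27305 genes of the RefSeq table, and in 12.76% of the 10401 tested genes (of 14330) that had an entry. On the cancer-testis and germline list it stood in 9 of 40 matched genes (22.5%), and among the genes called lower in 2 of 4. The 3 windows were chosen after these counts were seen, as the holders of the motif upstream of the start with the smallest adjusted p, and only the 250 bases before the start are printed, 5′ to 3′ on the strand of the gene.
PNMA5 (chrX:152994117-152994366, minus strand): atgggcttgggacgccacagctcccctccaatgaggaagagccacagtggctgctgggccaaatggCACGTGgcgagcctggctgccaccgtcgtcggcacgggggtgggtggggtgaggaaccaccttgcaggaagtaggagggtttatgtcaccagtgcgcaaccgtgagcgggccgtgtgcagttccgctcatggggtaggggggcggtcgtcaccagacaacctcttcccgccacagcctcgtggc
ACRC (chrX:71578187-71578436, plus strand): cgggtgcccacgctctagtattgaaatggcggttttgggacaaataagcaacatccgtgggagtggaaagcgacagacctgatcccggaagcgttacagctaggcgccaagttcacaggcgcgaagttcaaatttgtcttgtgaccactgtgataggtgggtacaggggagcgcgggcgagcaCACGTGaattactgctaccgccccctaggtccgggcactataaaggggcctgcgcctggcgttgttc
PAGE2B (chrX:55074780-55075029, plus strand): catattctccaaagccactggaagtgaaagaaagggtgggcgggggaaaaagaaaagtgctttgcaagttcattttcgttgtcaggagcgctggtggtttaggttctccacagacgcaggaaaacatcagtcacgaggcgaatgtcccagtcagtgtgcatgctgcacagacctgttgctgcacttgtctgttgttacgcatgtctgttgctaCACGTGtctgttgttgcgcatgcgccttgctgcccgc
The capitals end 178 bases before the start in PNMA5, 61 in ACRC and 31 in PAGE2B. A CG pair stands at the center of the motif itself. The median number of CG pairs per window was 19 for the genes called higher and 19 for the cancer-testis and germline list. It was 25 over the tested genes with an entry and 14 over the windows of the whole table. A match in these letters is a description and does not show that a factor binds there.

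Other called genes are known from several steps of germ cell biology. MAGEA4 and PAGE5 are X-linked cancer-testis antigens. MAGEA4 went from 0.185 to 6.45 CPM in HH, from 0.157 to 12.2 in PF382 and from 0.329 to 15.1 in TLOm1 (log2 fold change 5.63 ± 0.30 (SE), adjusted p = 0.0172). PAGE5 had no count in HH at the lowest dose and went from 0 to 2.26 CPM in HH, from 2.27 to 38.6 in PF382 and from 0.206 to 7.42 in TLOm1, so that its groups overlapped through the high starting level of PF382 (log2 fold change 4.51 ± 0.40 (SE), adjusted p = 0.0492).

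MAEL and PNLDC1 act in the piRNA pathway, which silences transposons in germ cells, MAEL as a silencing factor and PNLDC1 as the nuclease that trims piRNA ends. MAEL was at 0.556, 0.554 and 5.97 CPM in HH, 1.49, 10.5 and 52.2 CPM in PF382 and 1.48, 15.6 and 60.8 CPM in TLOm1. In HH it thus did not move between the lowest and the middle dose, and this was the 1 of 42 pairs in which the middle dose was not between the others (log2 fold change 4.95 ± 0.34 (SE), adjusted p = 0.0264). PNLDC1 went from 0.247 to 4.27 CPM in HH, from 1.14 to 11.5 in PF382 and from 0.288 to 2.67 in TLOm1 (log2 fold change 3.45 ± 0.30 (SE), adjusted p = 0.0457). TDRD1, a Tudor protein of the same pathway, just missed the threshold and was at 0 and 0.484 CPM in HH, 0.196 and 5.3 CPM in PF382 and 0.206 and 3.69 CPM in TLOm1 at the lowest and highest dose (log2 fold change 4.48 ± 0.42 (SE), adjusted p = 0.052), and it rose in the 9-library test (log2 fold change 4.58, adjusted p = 0.00549).

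TEX11, a meiotic recombination gene on the X chromosome, went from 0.185 to 5.93 CPM in HH, from 0.235 to 2.95 in PF382 and from 0.534 to 14.9 in TLOm1 (log2 fold change 4.47 ± 0.35 (SE), adjusted p = 0.0366). STK31, a testis kinase, went from 0.247 to 3.35 CPM in HH, from 0.822 to 9.93 in PF382 and from 0.0822 to 1.06 in TLOm1 (log2 fold change 3.61 ± 0.30 (SE), adjusted p = 0.0424). Neither overlapped between the groups. TSPYL6, a testis gene of the TSPY-like family, went from 0.124 to 3.35 CPM in HH, from 0.0783 to 1.87 in PF382 and from 0.0822 to 2.84 in TLOm1 (log2 fold change 4.73 ± 0.38 (SE), adjusted p = 0.041), resting on 6 counts at the lowest dose. TUBA3D, a testis-enriched alpha-tubulin, went from 1.24 to 22.8 CPM in HH, from 2.35 to 29.8 in PF382 and from 1.19 to 12.7 in TLOm1 (log2 fold change 3.72 ± 0.21 (SE), adjusted p = 0.0172). PAGE2B and TUBA3D have near-identical paralogs, and how shared reads were assigned is not given in the sources used here, so their counts may include reads of a relative.

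The cancer-testis and germline list as a whole carried the same direction. Of 90 genes listed 89 were in the files and 50 had counts enough for the test. The fitted change was above 0 for 47 and below 0 for 3 of these 50, with a median log2 fold change of 3.12, against 0.01 over all genes tested. Of these, 3 were called (MAGEA4, MAEL and PAGE5), and 27 were higher by DESeq2 with 0 lower. In the 9-library test 38 of 58 rose and 0 fell. Since a gene that is silent at the lowest dose passed the filter only through the highest dose, the full list was also counted without it. Summed over libraries, 71 of 89 had a higher and 8 a lower CPM at the highest dose, and 10 had no count in any of the 6 libraries. By the same count 7569 of the 14330 genes tested, a filtered set, were higher and 6761 lower. At the lowest dose 21 of the 89 had no count at all, against 11 at the highest. Over all genes in the files, those with a count also became more numerous from the lowest to the highest dose. They went from 16657 to 17574 in HH, where the lowest-dose library was the smaller, from 17994 to 18720 in PF382 and from 17801 to 18941 in TLOm1. The summed level of the list went from 88.1 to 275 CPM in HH, from 289 to 805 CPM in PF382 and from 544 to 1035 CPM in TLOm1. The list was thus above its lowest-dose sum in every line, by the largest factor in HH and the smallest in TLOm1. Over the 50 tested members alone, the median log2 ratio was smallest in HH (2.15) and largest in PF382 (3.57), with TLOm1 at 2.56. Members silent at the lowest dose entered these medians only through the highest dose. The sums and the medians order the lines differently, so the lines cannot be ranked by them.

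NRARP, a Notch target that feeds back on Notch signaling, was the called gene of lymphoid signaling. Its level at the 3 doses was 15.1, 45.3 and 70.8 CPM in HH, 0.744, 2.29 and 4.39 CPM in PF382 and 0.247, 0.369 and 1.06 CPM in TLOm1. HH started far above the other lines, so the groups overlapped, but each line moved upward (log2 fold change 2.29 ± 0.17 (SE), adjusted p = 0.0335). The untreated HH library held 3.91 CPM.

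SLC7A5 encodes the light chain of the large neutral amino acid transporter LAT1, and SLC3A2 its heavy chain. SLC7A5 was at 159.5, 182 and 275 CPM in HH, 679, 782 and 1210.1 CPM in PF382 and 1026, 1301 and 1707 CPM in TLOm1, higher at each step in each line (log2 fold change 0.77 ± 0.07 (SE), adjusted p = 0.0457). LOC100506670, an identifier outside the rule for naming genes, was called with it, and its counts were 27.2 to 28.8% of those of SLC7A5 over the 12 libraries of the AZA set. SLC3A2 went from 124 to 159.8 CPM in HH, from 248 to 403 in PF382 and from 325 to 552 in TLOm1. It missed the threshold (log2 fold change 0.60 ± 0.10 (SE), adjusted p = 0.134) and rose in the 9-library test (log2 fold change 0.60, adjusted p = 0.00527).

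Amino acid transport and asparagine synthesis belong to the genes that ATF4 switches on when the integrated stress response slows translation. Of the 12 tested genes on that list 1 was called higher (SLC7A5) and 0 lower, 8 were higher at an unadjusted p under 0.05, and the median log2 fold change was 0.54. DESeq2 called 7 higher and 0 lower, and 8 rose and 0 fell in the 9-library test. SLC6A9, the glycine transporter GLYT1, went from 0.68 to 3.75 CPM in HH, from 12.6 to 29.3 in PF382 and from 34.2 to 65.2 in TLOm1 (log2 fold change 1.27 ± 0.25 (SE), adjusted p = 0.147). SLC43A1, a further carrier of large neutral amino acids, went from 0.247 to 1.09 CPM in HH, from 6.23 to 27.8 in PF382 and from 0.411 to 1.02 in TLOm1 (log2 fold change 1.91 ± 0.28 (SE), adjusted p = 0.0984). Both rose in the 9-library test, with adjusted p = 0.0109 and 0.00934.

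Regulators of the integrated stress response had the same direction, with the larger medians in PF382 and TLOm1. None of the 18 tested was called, 9 were higher and 1 lower at an unadjusted p under 0.05, and the median was 0.72. Their median log2 ratio was 0.16 in HH, 0.85 in PF382 and 0.75 in TLOm1. DESeq2 and the 9-library test each called 8 higher and 0 lower. DDIT3, the stress transcription factor CHOP, was at 9.21, 10.8 and 14.5 CPM in HH, 14.3, 18.6 and 35.1 CPM in PF382 and 8.39, 10.1 and 25.03 CPM in TLOm1. Its libraries at the highest dose all lay above those at the lowest (log2 fold change 1.17 ± 0.20 (SE), adjusted p = 0.134), and it rose in the 9-library test (log2 fold change 1.18, adjusted p = 0.00852). It was the 1 of 18 tested regulators whose groups did not overlap, against 431 of all 14330 genes. ATF5, a transcription factor whose translation increases under stress, went from 63.6 to 271 CPM in HH, from 601 to 1317 in PF382 and from 723 to 1198 in TLOm1 (log2 fold change 1.28 ± 0.26 (SE), adjusted p = 0.153). SESN2, which restrains mTORC1 when leucine is short, was at 20.4 and 28.9 CPM in HH and went from 25.8 to 61.6 CPM in PF382 and from 64.4 to 142 CPM in TLOm1 (log2 fold change 0.96 ± 0.16 (SE), adjusted p = 0.134). CEBPB, a bZIP factor that pairs with ATF4, went from 12.4 to 17.9 CPM in HH, from 18.1 to 51.4 in PF382 and from 12.1 to 26.01 in TLOm1 (log2 fold change 1.04 ± 0.20 (SE), adjusted p = 0.147). ATF5, SESN2 and CEBPB rose in the 9-library test, with adjusted p = 0.0395, 0.00582 and 0.0111.

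**Figure D2:**
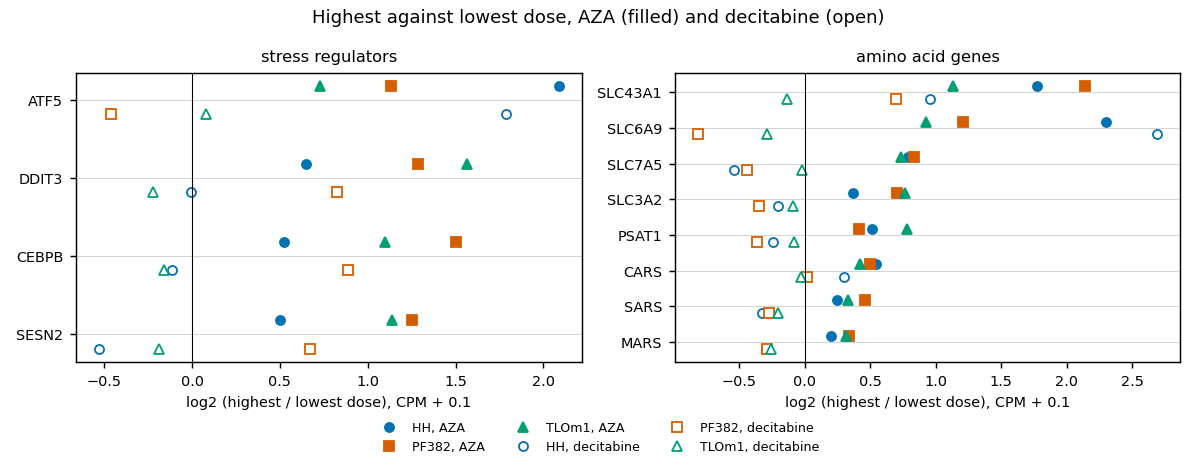
Log2 ratio of highest to lowest dose, on CPM + 0.1, for stress regulators (left) and amino acid and tRNA synthetase genes (right), with filled markers for AZA and open markers for decitabine, 1 marker for 1 line. The AZA markers of SLC7A5 lie to the right of 0 in all 3 lines, with a fitted log2 fold change of 0.77.

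The serine list was nearly flat (median 0.10, with 3 of 16 higher and 1 lower at an unadjusted p under 0.05), and so was that of the cytosolic tRNA synthetases (median −0.03, 5 and 3 of 20). PSAT1, an enzyme of serine synthesis, went from 109.9 to 157 CPM in HH, from 238 to 318 in PF382 and from 331 to 567 in TLOm1, and CARS, the cysteinyl-tRNA synthetase, went from 97.1 to 142 CPM in HH, from 71.9 to 102 in PF382 and from 163 to 218 in TLOm1. Both rose in the 9-library test (PSAT1 log2 fold change 0.55, adjusted p = 0.0058, CARS log2 fold change 0.47, adjusted p = 0.00411). RARS, the arginyl-tRNA synthetase, went the other way, from 83.8 to 57.3 CPM in HH, from 80.5 to 64.4 in PF382 and from 80.6 to 68.2 in TLOm1 (log2 fold change -0.39, adjusted p = 0.0166 in the same test). The unfolded protein response list, which belongs to a neighboring stress pathway, had 0 of 22 genes higher and 4 lower at an unadjusted p under 0.05, among them the chaperone gene HSP90B1 (-0.44 ± 0.08, SE).

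The CARE-type motif TGATGNAA, the letters through which ATF4 and C/EBP factors are known to act on such genes, stood in the windows of 6 of 11 matched amino acid genes (54.55%: SLC3A2, SLC1A5, SLC1A4, ASNS, SLC7A1 and SLC38A1) and of 4 of 16 matched stress regulators (25%), against 4.457% of the 27305 genes of the table. It was searched on both strands and does not contain the E-box. SLC7A5, the called member of the amino acid list, was not among the holders. SLC38A1 held the motif with a log2 fold change of -0.093 (adjusted p = 0.617 in the 6-library test). A match in these letters is a description, and whether a factor binds there or changes these genes was not tested. SLC1A5, a glutamine transporter, and ASNS, the asparagine synthetase, are shown because their motif lies before the start, and were named after their values were seen.
SLC1A5 (chr19:46784815-46785064, minus strand): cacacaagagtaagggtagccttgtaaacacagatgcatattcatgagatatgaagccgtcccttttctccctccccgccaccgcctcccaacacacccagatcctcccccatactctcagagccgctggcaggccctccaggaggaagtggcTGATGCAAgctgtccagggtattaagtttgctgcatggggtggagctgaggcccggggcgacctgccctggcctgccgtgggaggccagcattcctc
ASNS (chr7:97872409-97872658, minus strand): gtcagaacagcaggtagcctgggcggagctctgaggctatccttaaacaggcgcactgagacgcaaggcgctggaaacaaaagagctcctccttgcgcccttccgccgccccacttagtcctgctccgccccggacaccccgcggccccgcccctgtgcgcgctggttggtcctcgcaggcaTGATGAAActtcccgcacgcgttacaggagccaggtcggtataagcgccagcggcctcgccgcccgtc
The motif in capitals ends 89 bases before the start in SLC1A5 and 60 in ASNS. SLC1A5 went from 220.2 to 275 CPM in HH, from 243 to 353 in PF382 and from 498 to 866 in TLOm1 (log2 fold change 0.53 ± 0.11 (SE), adjusted p = 0.148). ASNS went from 135 to 154 CPM in HH, from 26.04 to 35.5 in PF382 and from 272 to 390.4 in TLOm1 (log2 fold change 0.37 ± 0.09 (SE), adjusted p = 0.204). Both rose in the 9-library test, with adjusted p = 0.00905 and 0.0231.

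Genes of lipid synthesis were lower at the highest dose. SCD, the stearoyl-CoA desaturase that makes oleate from stearate, was at 1389, 994 and 545 CPM in HH, 496, 301 and 143 CPM in PF382 and 636, 400.2 and 181 CPM in TLOm1, a fall at each step in each line (log2 fold change -1.67 ± 0.12 (SE), adjusted p = 0.0264). Its groups overlapped because HH at the highest dose lay at the level of the other lines at the lowest. LOC100652751, also outside the rule for names, fell with it, and its counts were 21.6 to 23.3% of those of SCD over the same 12 libraries. Of 12 tested genes of fatty acid synthesis and desaturation, 1 was called lower (SCD) and 7 were lower at an unadjusted p under 0.05, with 0 higher. FASN, the fatty acid synthase, was at 1446, 1260.4 and 971 CPM in HH, 508, 425 and 324 CPM in PF382 and 1107, 951 and 734 CPM in TLOm1 (log2 fold change -0.62 ± 0.07 (SE), adjusted p = 0.0633). ACSL3, which activates long-chain fatty acids, was at 119 and 84.3 CPM in HH, 111 and 73.3 CPM in PF382 and 92.6 and 65.3 CPM in TLOm1 at the lowest and highest dose (log2 fold change -0.55 ± 0.08 (SE), adjusted p = 0.0949), and ACLY, which supplies cytosolic acetyl-CoA, at 612 and 455 CPM in HH, 431 and 373 CPM in PF382 and 525 and 403 CPM in TLOm1 (log2 fold change -0.36 ± 0.08 (SE), adjusted p = 0.16). FASN, ACSL3 and ACLY fell in the 9-library test, with adjusted p = 0.00076, 0.00218 and 0.0117.

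The sterol genes, which SREBP2 drives when cells run short of cholesterol, had a uniform direction. None of the 22 tested passed in the 6-library test, yet 21 were lower at an unadjusted p under 0.05. The same number were lower in all 3 lines, against 2741 of all 14330 genes, with a median log2 fold change of −0.76. DESeq2 called 18 lower and the 9-library test 21, with 0 higher in either. The middle dose lay between the outer doses in 64 of 66 pairs of gene and line. Line medians were −0.93 in HH, −0.44 in PF382 and −1.03 in TLOm1.

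HMGCS1, which makes HMG-CoA, was at 383, 164 and 75.4 CPM in HH, 141, 111 and 87.98 CPM in PF382 and 204, 102 and 68.6 CPM in TLOm1 (log2 fold change -1.55 ± 0.31 (SE), adjusted p = 0.152). SQLE, the squalene epoxidase, went from 422 to 224 CPM in HH, from 94.8 to 66.6 in PF382 and from 312 to 182 in TLOm1 (log2 fold change -0.76 ± 0.10 (SE), adjusted p = 0.0867). Among the lines the change was smallest in PF382 for both genes, and HMGCS1 ended there above the level of the other lines after starting lowest.

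Downstream, CYP51A1 (lanosterol demethylase) went from 134 to 58.5 CPM in HH, from 21.2 to 14.7 in PF382 and from 128 to 48.9 in TLOm1 (log2 fold change -1.08 ± 0.17 (SE), adjusted p = 0.132), and MSMO1 (the methylsterol oxidase that follows) went from 35.3 to 11.7 CPM in HH, from 31.9 to 20.4 in PF382 and from 49.5 to 19.05 in TLOm1 (log2 fold change -1.22 ± 0.20 (SE), adjusted p = 0.134). DHCR7, the last step before cholesterol, went from 221 to 106 CPM in HH, from 71.9 to 48.5 in PF382 and from 81.2 to 28.4 in TLOm1 (log2 fold change -1.06 ± 0.18 (SE), adjusted p = 0.134). These 3 genes and the 2 above fell in the 9-library test, with adjusted p from 0.00218 for SQLE to 0.0251 for HMGCS1. PMVK, the phosphomevalonate kinase, was the exception, at 56.3 and 68.7 CPM in HH, 18.1 and 19.2 CPM in PF382 and 69.4 and 56.1 CPM in TLOm1 (log2 fold change 0.00 ± 0.13 (SE), adjusted p = 0.997), higher in HH, nearly level in PF382 and lower in TLOm1.

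The list of genes that sense and export sterols was less uniform, with 1 of 13 higher and 3 lower at an unadjusted p under 0.05. INSIG1, the SREBP anchor that is itself an SREBP target, went from 426 to 277 CPM in HH, from 289 to 131 in PF382 and from 953 to 384 in TLOm1 (log2 fold change -1.05 ± 0.15 (SE), adjusted p = 0.0984), and SREBF2, which encodes SREBP2, went from 683 to 568 CPM in HH, from 312 to 268 in PF382 and from 469 to 417 in TLOm1 (log2 fold change -0.24 ± 0.07 (SE), adjusted p = 0.222). Both fell in the 9-library test (adjusted p = 0.00426 and 0.029). NR1H2, the liver X receptor beta, was the gene that rose there (log2 fold change 0.50, adjusted p = 0.00699), at 42.9 and 57.01 CPM in HH, 28.5 and 44.5 CPM in PF382 and 45.5 and 64.7 CPM in TLOm1 at the lowest and highest dose. An SRE-type motif (TCACNCCAC) was found in 0 of the 16 sterol genes with a RefSeq entry and in 1.388% of the table, and since 16 of 22 is under 80% no more was made of it.

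**Figure D3:**
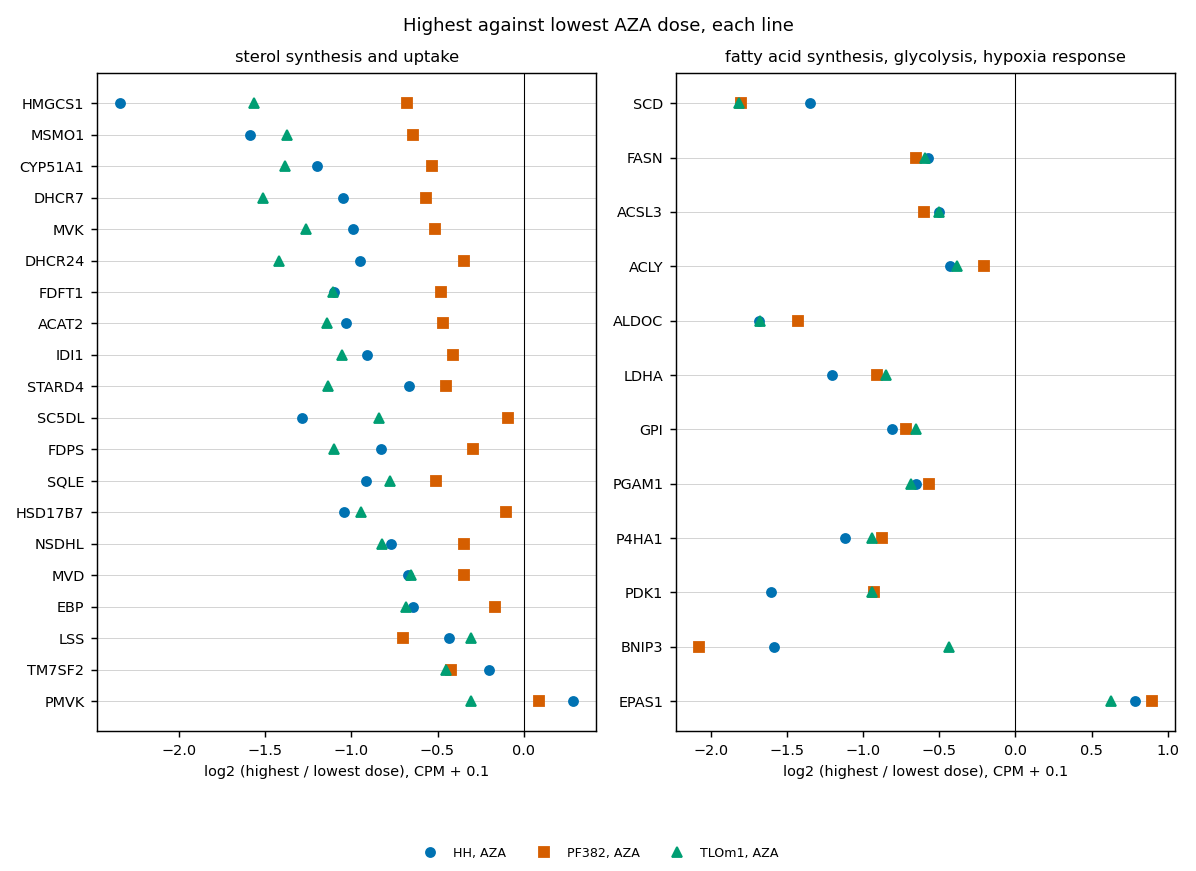
Log2 ratio of highest to lowest AZA dose, on CPM + 0.1, for 20 of the 22 tested sterol genes (left) and named genes of fatty acid synthesis, glycolysis and the hypoxia response (right), 1 marker for 1 line. The sterol genes shown, PMVK excepted, lie left of 0 in the 3 lines, and the PF382 markers lie nearest to 0 for most of them (line median −0.44).

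Glycolytic genes were lower as well. Of 23 tested glycolytic genes 2 were called lower (ALDOC and LDHA) and 0 higher, and 16 were lower at an unadjusted p under 0.05. In all lines 18 were lower, against 2741 of all 14330 genes, and the median was −0.53. DESeq2 and the 9-library test called 15 lower and 0 higher each. ALDOC, an aldolase, was at 315, 232 and 98.2 CPM in HH, 22.9, 16.3 and 8.45 CPM in PF382 and 19.7, 10.3 and 6.11 CPM in TLOm1, so that HH again held the highest level and lost most in absolute terms (log2 fold change -1.62 ± 0.09 (SE), adjusted p = 0.0172). LDHA, which turns pyruvate into lactate, was at 1887, 1620.1 and 819 CPM in HH, 1125, 934 and 598 CPM in PF382 and 1047, 799 and 582 CPM in TLOm1. Its libraries at the highest dose all lay below those at the lowest (log2 fold change -1.01 ± 0.09 (SE), adjusted p = 0.0492). GPI, the enzyme after hexokinase, came close to the threshold at 934 and 533 CPM in HH, 421 and 256 CPM in PF382 and 480.02 and 305 CPM in TLOm1 at the lowest and highest dose (log2 fold change -0.74 ± 0.07 (SE), adjusted p = 0.052), and PGAM1, a phosphoglycerate mutase, was at 328 and 208 CPM in HH, 154 and 104 CPM in PF382 and 267 and 166 CPM in TLOm1 (log2 fold change -0.65 ± 0.07 (SE), adjusted p = 0.0697). Both fell in the 9-library test (adjusted p = 0.000808 and 0.000916).

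Several glycolytic genes are also targets of the hypoxia-inducible factors. Of 15 tested genes on the hypoxia list 1 was called lower (P4HA1), and 6 were lower and 1 higher at an unadjusted p under 0.05, with a median of −0.22. The line median was −0.81 in HH, against −0.015 for PF382 and −0.069 for TLOm1. The summed level of the list went from 1594 to 1122 CPM in HH, from 630.5 to 629 in PF382 and from 921 to 935 in TLOm1, so the list as a whole was lower in HH and near level in the other lines. P4HA1, the prolyl hydroxylase that matures collagen, was at 86.2, 75.2 and 39.7 CPM in HH, 57.4, 43.2 and 31.2 CPM in PF382 and 65.4, 47.8 and 33.98 CPM in TLOm1, with groups that did not overlap (log2 fold change -0.9997 ± 0.09 (SE), adjusted p = 0.0492). PDK1, the kinase that keeps pyruvate out of mitochondria, went from 92.6 to 30.4 CPM in HH, from 20.1 to 10.5 in PF382 and from 26.3 to 13.6 in TLOm1 (log2 fold change -1.19 ± 0.17 (SE), adjusted p = 0.0946), and BNIP3, a mitophagy receptor, went from 60.7 to 20.2 CPM in HH, from 24.1 to 5.62 in PF382 and from 22.9 to 16.9 in TLOm1 (log2 fold change -1.38 ± 0.33 (SE), adjusted p = 0.184). Both fell in the 9-library test (adjusted p = 0.00782 and 0.0463). EPAS1, which encodes HIF-2 alpha, was higher instead, from 32.3 to 55.8 CPM in HH, from 1.41 to 2.71 in PF382 and from 1.97 to 3.1 in TLOm1 (log2 fold change 0.78, adjusted p = 0.0174 in the 9-library test).

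Genes of growth were mostly lower by small amounts. Nuclear-encoded oxidative phosphorylation had 16 of 24 genes lower and 0 higher at an unadjusted p under 0.05, with a median of −0.24. In all lines 22 were lower, against 2741 of all 14330 genes. In the 9-library test 12 fell, against 656 of all 15932. ATP5B, the beta subunit of ATP synthase, went from 1102 to 904 CPM in HH, from 956 to 771 in PF382 and from 1113 to 808 in TLOm1 (log2 fold change -0.37 ± 0.07 (SE), adjusted p = 0.147). The ribosome biogenesis list had 12 of 25 lower (median −0.18, 9 in the 9-library test), led by the nucleolar protein genes NPM1 (-0.38 ± 0.06, SE) and NCL (-0.36 ± 0.07, SE). The 16 heat shock genes had 8 lower and 1 higher (median −0.23, 6 lower in the 9-library test). HSPD1 and HSPE1, the chaperonin and its partner in mitochondria, went together. HSPD1 went from 595 to 389 CPM in HH, from 814 to 572 in PF382 and from 958 to 548 in TLOm1 (log2 fold change -0.66 ± 0.08 (SE), adjusted p = 0.0845), with no overlap of the groups, and HSPE1 had a log2 fold change of -0.73 ± 0.10 (SE). The groups did not overlap for 3 of the 16 heat shock genes, against 431 of all 14330 genes. HSPD1, HSPE1, NPM1, LDHA and PGAM1 have many processed pseudogenes, and reads shared with them make these counts less certain.

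Mitosis had 15 of 30 genes lower and 0 higher at an unadjusted p under 0.05 (median −0.26), and 10 fell in the 9-library test. The line median was −0.0078 in HH, with 13 genes above and 17 below 0, against −0.34 in PF382 and −0.31 in TLOm1, where all 30 were below 0. The summed level went from 4495 to 4583 CPM in HH, from 9416 to 7526 in PF382 and from 6171 to 5157 in TLOm1. CENPE, the kinetochore kinesin, went from 328 to 236 CPM in HH, from 168 to 122 in PF382 and from 134 to 92.9 in TLOm1 (log2 fold change -0.51 ± 0.07 (SE), adjusted p = 0.0946), and TTK, the kinase of the spindle checkpoint, went from 78.8 to 58.9 CPM in HH, from 119 to 80.2 in PF382 and from 32.9 to 22.7 in TLOm1 (log2 fold change -0.53 ± 0.08 (SE), adjusted p = 0.122). Of 34 replication genes 3 were lower and 0 higher at that p (median −0.20), against 1121 lower of all 14330, so their share was near that of all genes. The line median was −0.034 in HH and −0.0013 for PF382, against −0.50 for TLOm1. POLA1, the catalytic subunit of polymerase alpha, was at 71.8 and 60.2 CPM in HH, 133 and 114 CPM in PF382 and 65.5 and 43.1 CPM in TLOm1 at the lowest and highest dose (log2 fold change -0.38 ± 0.11 (SE), adjusted p = 0.22).

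No gene for a DNA methyltransferase passed a test of dose. DNMT1, the maintenance methyltransferase that AZA traps, was at 495, 551 and 552 CPM in HH, 776, 805 and 790.3 CPM in PF382 and 577, 608 and 499.6 CPM in TLOm1 (log2 fold change -0.03 ± 0.09 (SE), adjusted p = 0.906). UHRF1, which guides DNMT1 to hemimethylated DNA, was at 161, 166 and 181 CPM in HH, 888, 903 and 858 CPM in PF382 and 205, 207 and 156 CPM in TLOm1 (log2 fold change -0.11 ± 0.12 (SE), adjusted p = 0.669). In both, TLOm1 ended below its lowest-dose level while HH ended above it. The de novo enzymes DNMT3A and DNMT3B were abundant in PF382 only among these lines. DNMT3A went from 107 to 125 CPM there and stayed at or below 1.41 CPM elsewhere (log2 fold change 0.38 ± 0.20 (SE), adjusted p = 0.391). DNMT3B went from 131 to 94.3 CPM in PF382 (log2 fold change -0.32 ± 0.17 (SE), adjusted p = 0.404). Of 19 tested genes of DNA methylation and demethylation 0 were called, and 2 were higher and 1 lower at an unadjusted p under 0.05.

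Genes that take up and activate cytidine analogs leaned downward in the joint fit but not in every line. At an unadjusted p under 0.05, 0 of 20 were higher and 4 lower, with a median of −0.13. The line median was −0.080 in HH and 0.033 in PF382, where 11 genes were above and 9 below 0. It was −0.27 in TLOm1, with 5 above and 15 below. UCK2, the kinase thought to carry out most of the first phosphorylation of AZA, was at 142 and 133 CPM in HH, 100.02 and 103 CPM in PF382 and 80.3 and 60.8 CPM in TLOm1 (log2 fold change -0.17 ± 0.11 (SE), adjusted p = 0.46). DCK, the kinase that does this for decitabine, was at 42.8 and 47.8 CPM in HH, 157 and 138 CPM in PF382 and 38.5 and 30.2 CPM in TLOm1 (log2 fold change -0.14 ± 0.12 (SE), adjusted p = 0.578). SLC29A1, the equilibrative nucleoside transporter ENT1, was level in HH and lower in the other lines, at 147 and 144 CPM in HH, 344 and 224 CPM in PF382 and 61.96 and 49.5 CPM in TLOm1 (log2 fold change -0.35 ± 0.13 (SE), adjusted p = 0.274). RRM1, the large subunit of the ribonucleotide reductase that makes the deoxy form, went from 211 to 185 CPM in HH, from 399 to 333 in PF382 and from 246 to 146 in TLOm1, and NME1, a nucleoside diphosphate kinase, went from 38.3 to 33.2 CPM in HH, from 41.2 to 28.3 in PF382 and from 53.5 to 37.5 in TLOm1. RRM1 and NME1 were the pair that fell in the 9-library test (RRM1 log2 fold change -0.42, adjusted p = 0.0424, NME1 log2 fold change -0.44, adjusted p = 0.0414).

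Interferon-stimulated genes, which respond to double-stranded RNA from derepressed repeats among other triggers, had 0 of 41 called, 12 higher and 0 lower at an unadjusted p under 0.05, and a median of 0.46. DESeq2 called 1 higher and the 9-library test 5, with 0 lower in either. Line medians were 0.35 in HH, 0.16 in PF382 and 0.73 in TLOm1. PARP14, an ADP-ribosyltransferase, went from 6.68 to 12.9 CPM in HH, from 73.2 to 98.3 in PF382 and from 24.4 to 56.6 in TLOm1 (log2 fold change 0.83 ± 0.17 (SE), adjusted p = 0.16). IRF7, the factor that amplifies type I interferon, went from 6.18 to 14.2 CPM in HH, from 10.5 to 12.8 in PF382 and from 12.8 to 27.1 in TLOm1 (log2 fold change 0.83 ± 0.22 (SE), adjusted p = 0.208). IFITM3, a membrane protein that restricts viral entry, was near the limit of detection in HH (0.247 and 0.161 CPM) and went from 1.21 to 4.95 CPM in PF382 and from 2.14 to 6.49 CPM in TLOm1 (log2 fold change 1.52 ± 0.44 (SE), adjusted p = 0.222). PARP14, IRF7 and IFITM3 rose in the 9-library test (adjusted p = 0.0336, 0.0463 and 0.0267). Class I presentation did not lean either way in the joint fit (2 of 18 higher and 1 lower at an unadjusted p under 0.05, median 0.00). The line median was 0.19 in HH, with 12 genes above and 6 below 0, against −0.017 in PF382 and 0.039 in TLOm1. Class II presentation had 3 of 15 higher and 1 lower, with a line median of 0.51 in HH, −0.14 for PF382 and 0.04 for TLOm1. In PF382 these genes summed to only 17.3 and 16.3 CPM at the lowest and highest dose, so its median rests on low levels. The sums were 6673 and 9566 CPM in HH and 16421 and 18082 CPM in TLOm1. In the 9-library test 1 class II gene rose and 1 fell. The gene that rose was CD74, the invariant chain, at 3596 and 5236 CPM in HH, 2.82 and 3.27 CPM in PF382 and 7837 and 9281 CPM in TLOm1 (log2 fold change 0.35, adjusted p = 0.0312 in the 9-library test). The gene that fell was IFI30, a thiol reductase of antigen processing, which went from 46.1 to 38.5 CPM in HH, from 6.19 to 5.03 in PF382 and from 76.3 to 47.1 in TLOm1 (log2 fold change -0.45, adjusted p = 0.0351).

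**Figure D4:**
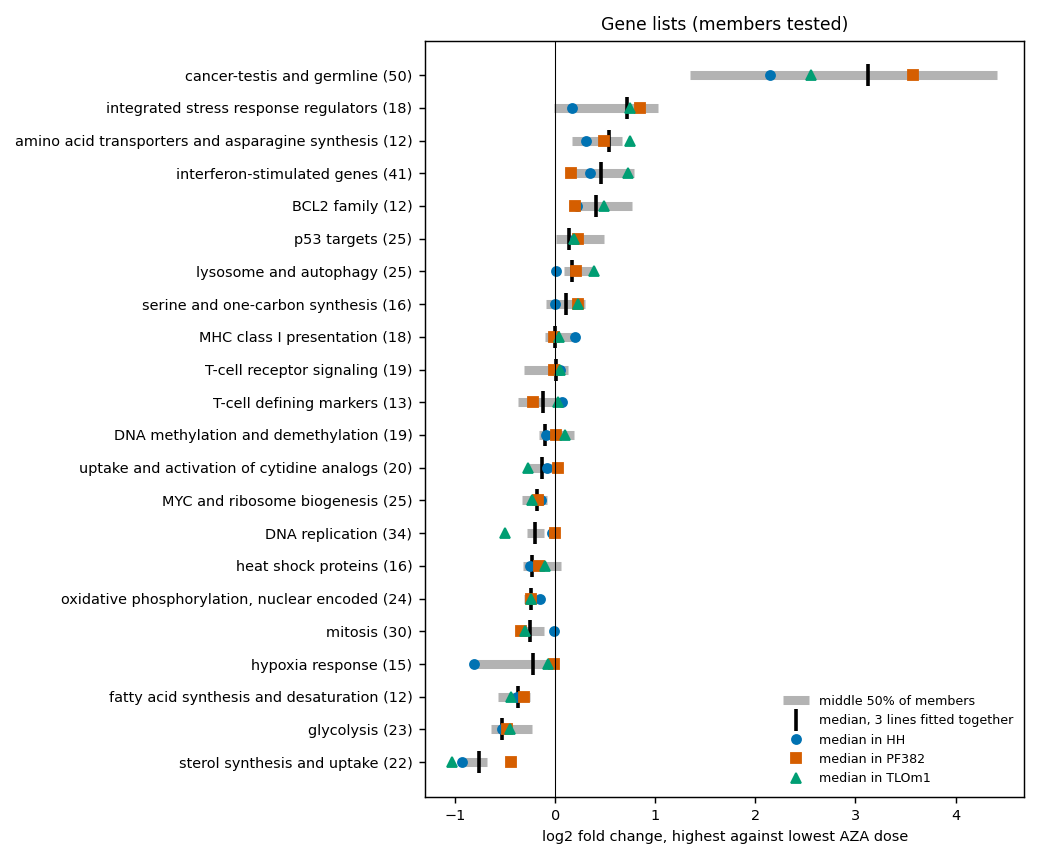
Log2 fold change of highest against lowest AZA dose for 22 gene lists, with the number of tested members in brackets, the median of the joint fit as a black tick, the middle 50% of members as a grey bar and the median in each line as a colored marker. The joint median is 3.12 for the germline list and −0.76 for the sterol list, and close to 0 for class I presentation and T-cell receptor signaling.

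T-cell genes leaned no common way. The 13 tested defining markers had 0 called and 0 at an unadjusted p under 0.05 (median −0.12). CD3E went from 75.1 to 83.98 CPM in HH, from 562 to 663 in PF382 and from 39.3 to 36.02 in TLOm1 (log2 fold change 0.08 ± 0.10 (SE), adjusted p = 0.712), and CD4 was at 569.6 and 627 CPM in HH, 20.7 and 8.89 CPM in PF382 and 999 and 761 CPM in TLOm1 (log2 fold change -0.46 ± 0.25 (SE), adjusted p = 0.412), lower in PF382 and TLOm1 and higher in HH. Of 19 tested genes of T-cell receptor signaling 1 was higher and 2 were lower at an unadjusted p under 0.05 (median 0.01), and in the 9-library test 1 of 22 rose and 1 fell. LAT, the adaptor below the T-cell receptor, went from 34.3 to 49.7 CPM in HH, from 309 to 443 in PF382 and from 61.7 to 86.8 in TLOm1 (log2 fold change 0.50 ± 0.07 (SE), adjusted p = 0.0984), and it rose in the 9-library test (log2 fold change 0.49, adjusted p = 0.00989). THEMIS, a regulator of T-cell receptor signals in thymocytes, went from 56.01 to 29.7 CPM in HH, from 62.3 to 33.8 in PF382 and from 0.164 to 0.339 in TLOm1 (log2 fold change -0.82 ± 0.22 (SE), adjusted p = 0.21), and it fell in the 9-library test (log2 fold change -0.86, adjusted p = 0.0157). Of 19 lineage transcription factors 4 were higher and 2 lower at an unadjusted p under 0.05. KLF2, a quiescence factor, went from 13.2 to 42.2 CPM in HH, from 15.8 to 26.6 in PF382 and from 0.206 to 0.297 in TLOm1 (log2 fold change 1.17, adjusted p = 0.0144 in the 9-library test), and IKZF2, which encodes Helios, went from 2.16 to 0.645 CPM in HH, from 172 to 100.2 in PF382 and from 77.8 to 53.03 in TLOm1 (log2 fold change -0.78, adjusted p = 0.0489 in the same test). CCR8, a chemokine receptor gene abundant in TLOm1, went from 0.68 to 0.0806 CPM in HH, from 0.587 to 0.16 in PF382 and from 75.5 to 33.4 in TLOm1. It fell in the 9-library test (log2 fold change -1.39, adjusted p = 0.0192).

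Survival and stress-defense genes were mixed. The BCL2 family had 3 of 12 higher and 1 lower at an unadjusted p under 0.05 (median 0.41), and the p53 targets 3 of 25 higher and 1 lower (median 0.14). Of all 14330 genes 1253 were higher and 1121 lower at that p, so the p53 counts were near the share of all genes. PMAIP1, which encodes the BH3-only protein NOXA, went from 11.7 to 13.8 CPM in HH, from 39.2 to 57.03 in PF382 and from 85.1 to 163 in TLOm1 (log2 fold change 0.59, adjusted p = 0.019 in the 9-library test). BCL2L2, an antiapoptotic relative of BCL2, went from 0.989 to 2.1 CPM in HH, from 3.17 to 8.02 in PF382 and from 11.6 to 17.4 in TLOm1 (log2 fold change 0.95, adjusted p = 0.0211). NQO1, the quinone reductase driven by NRF2, was at 9.64, 10.8 and 16.3 CPM in HH, 11.004, 14.2 and 26.2 CPM in PF382 and 63.3, 98.9 and 193 CPM in TLOm1 (log2 fold change 1.22 ± 0.17 (SE), adjusted p = 0.0984), and it rose in the 9-library test (log2 fold change 1.24, adjusted p = 0.00259). HMOX1, the heme oxygenase, was higher at the highest dose in HH and TLOm1 and at or near 0 in PF382, at 0.247 and 1.69 CPM in HH, 0.0783 and 0.0399 CPM in PF382 and 11.3 and 44.5 CPM in TLOm1 (log2 fold change 1.99 ± 0.36 (SE), adjusted p = 0.14). The lysosome and autophagy list had 7 of 25 higher and 0 lower at an unadjusted p under 0.05, among them SQSTM1, the autophagy receptor p62, which went from 231 to 376 CPM in HH, from 52.5 to 69.4 in PF382 and from 158 to 438 in TLOm1 (log2 fold change 0.84 ± 0.21 (SE), adjusted p = 0.197). NQO1 and SQSTM1 belong to neighboring lists of NRF2 targets and autophagy, and the antioxidant list around NQO1 had 2 of 17 higher and 3 lower.

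Divided at the middle dose, more genes passed in the upper step. From lowest to middle 3 of 15932 genes changed (0.0188%), all higher, and from middle to highest 31 (0.195%), of which 19 were higher and 12 lower. DESeq2 called 42 and 196. The steps share the middle libraries and are not independent. The 3 of the lower step were PNMA5 (3.53 on the log2 scale), PAGE2B (4.10) and H19, an imprinted non-coding RNA named after its values were seen. H19 was at 1.05, 14.1 and 43.5 CPM in HH, 0, 0 and 0.0399 CPM in PF382 and 0, 0.0821 and 0.127 CPM in TLOm1, so its call rested on HH. SCD changed by -0.63 in the lower step (adjusted p = 0.121) and by -1.05 in the upper (adjusted p = 0.0055). LDHA changed by -0.29 (adjusted p = 0.701) and -0.72 (adjusted p = 0.0273), and SLC7A5 by 0.25 (adjusted p = 0.474) and 0.52 (adjusted p = 0.021). Median log2 fold changes in the lower and the upper step were 1.74 and 1.51 for the germline list, 0.14 and 0.47 for the stress regulators, and −0.38 and −0.44 for the sterol list. Whether the steps differ was not tested.

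The slope on log2 dose, tested over the 9 treated libraries, differed between lines for 2508 of 15932 genes (15.7%). With 1 library per line and dose, the spread in this test is the scatter of 3 doses about a straight line within each cell line. It holds no variation between replicate cultures, so a single deviant library can enter a slope. DESeq2 gave 1382, and leaving out a line gave 1365 without HH, 1591 without PF382 and 1326 without TLOm1. Among the sterol genes 18 of 22 were of that kind, as HMGCS1 shows with a slope per doubling of dose of -1.005 in HH against -0.35 in PF382 and -0.80 in TLOm1 (adjusted p = 1.42e-05). DHCR7 had slopes of -0.45 in HH against -0.30 in PF382 and -0.76 in TLOm1 (adjusted p = 0.000357), and FDPS, the farnesyl diphosphate synthase, of -0.36 in HH against -0.16 in PF382 and -0.56 in TLOm1 (adjusted p = 0.000356). All 3 are shallowest in PF382. INSIG1 was steepest in TLOm1 (-0.27 in HH against -0.59 in PF382 and -0.67 in TLOm1, adjusted p = 0.000744). Of the DNA replication genes 23 of 34 were of that kind, of the class II presentation genes 8 of 15 and of the interferon list 22 of 42. The class II genes were low in PF382 (17.3 CPM in sum at its lowest dose), so their slopes there are less certain.

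Among the 6 genes with the smallest p for such a difference, MAGEB2 was higher in all 3 lines, by the smallest factor in TLOm1. The others moved up in 1 or 2 lines and down or hardly at all in the rest. SLC12A7, a potassium-chloride cotransporter, was at 2.04, 4.74 and 9.03 CPM in HH, 141, 97.6 and 55.04 CPM in PF382 and 0.493, 1.56 and 2.5 CPM in TLOm1, a loss in PF382 against gains in HH and TLOm1. CCNA1, the germ cell cyclin A1, was at 2.1, 18.96 and 66.3 CPM in HH, 0.0392, 0.127 and 0.0399 CPM in PF382 and 9.62, 9.4 and 8.99 CPM in TLOm1 and moved in HH alone among the lines. MAGEB2, a cancer-testis antigen, was at 1.36, 3.85 and 13.1 CPM in HH, 0.0783, 0.255 and 4.19 CPM in PF382 and 62.5, 62.9 and 69.4 CPM in TLOm1, where TLOm1 was already high at its lowest dose. COL6A3, a collagen VI chain, was at 798, 809 and 720.4 CPM in HH, 0.666, 1.06 and 0.997 CPM in PF382 and 32.1, 59.7 and 111 CPM in TLOm1, with the gain in TLOm1. TIMP2, a metalloproteinase inhibitor, was at 0.309, 0.215 and 0.323 CPM in HH, 127, 115 and 98.03 CPM in PF382 and 0.987, 4.55 and 11.4 CPM in TLOm1, again up in TLOm1 and here down in PF382. MTX3, an outer mitochondrial membrane protein, was at 45.9, 37.1 and 31.7 CPM in HH, 0.235, 0.934 and 4.55 CPM in PF382 and 91.7, 89.9 and 80.3 CPM in TLOm1, up in PF382 and down in the others. Adjusted p was 4.97e-08 for SLC12A7, MAGEB2, CCNA1 and COL6A3, 9.4e-08 for TIMP2 and 1.04e-07 for MTX3.

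**Figure D5:**
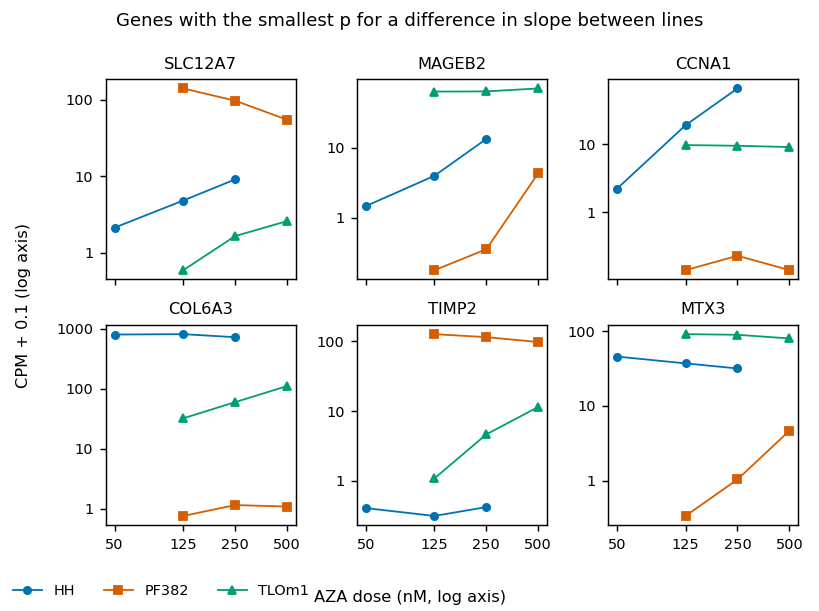
CPM + 0.1 on a log axis against AZA dose in nM on a log axis for the 6 genes with the smallest p for a difference in slope between lines, 1 point for 1 library. The curves of 1 gene run in different directions, as for SLC12A7, which falls from 141 to 55.04 CPM in PF382 and climbs from 2.04 to 9.03 CPM in HH.

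Decitabine gave the nearest counterpart, with its highest and lowest doses 5-fold apart in every line, in other libraries and at doses that do not match. In a model of the 12 libraries no gene had a change that differed between the drugs (0 of 16297, 0%), with 406 and 532 genes past an unadjusted p of 0.05 in either direction, while DESeq2 called 50. In that model the germline list had a median log2 fold change of 3.18 for AZA and 4.01 for decitabine, and PNMA5 one of 5.98 and 6.59. The amino acid list stood at 0.53 and −0.14, the stress regulators at 0.72 and 0.08, glycolysis at −0.54 and −0.25, the sterol genes at −0.77 and −0.42, and mitosis at −0.26 and 0.01. Single lines departed from these medians. With decitabine the log2 ratio of DDIT3 was 0.82 in PF382, against -0.0080 in HH and -0.22 in TLOm1. That of ATF5 was 1.79 in HH, against -0.46 in PF382 and 0.081 in TLOm1. From the lowest to the highest dose of decitabine SLC7A5 went from 82.03 to 56.5 CPM in HH, from 366 to 270.1 in PF382 and from 667 to 657 in TLOm1. Its log2 fold change was 0.76 with AZA and -0.37 with decitabine, a difference of 1.13 (adjusted p = 0.414). ALDOC differed by -1.14 (adjusted p = 0.194) and P4HA1 by -0.95 (adjusted p = 0.414). C6orf48, a host gene of small nucleolar RNAs, differed by 0.65 (adjusted p = 0.414), and the seryl- and methionyl-tRNA synthetase genes SARS and MARS by 0.63 and 0.58. In the AZA contrast C6orf48 went from 63.99 to 95.9 CPM in HH, from 89.2 to 135 in PF382 and from 71.05 to 103 in TLOm1 with no overlap of the groups, as for 431 of all 14330 genes (log2 fold change 0.55 ± 0.07 (SE), adjusted p = 0.0908). These differences did not pass in the edgeR test.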

How the data were processed

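RNA was sequenced from HH, PF382 and TLOm1 cells after 96 h of AZA, decitabine or no drug, 1 library per line and dose, with a strand-specific kit. The values deposited by the authors are raw read counts for 25559 genes, not normalized. STAR, DESeq2, limma and GRCh37.p2 appear in the submitters' processing notes. Their versions and roles, the counter used and its gene models were not given in the sources used here, and the labels name both poly-A and rRNA-depleted RNA.

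The 3 highest-dose and 3 lowest-dose AZA libraries were compared with edgeR 4.0.16 in R 4.3.3 (quasi-likelihood F test, TMM, robust dispersion, filterByExpr with minimum count 10 and total 15) with cell line as a block, and p-values were adjusted by Benjamini-Hochberg at 0.05. The replicate number of a library is its cell line, so the pairing comes from the labels. SEs were derived from the fold change and the F statistic. Slopes used log2 dose over 9 treated libraries, and the drugs were compared over 12 libraries with line within drug set as the block. CPM is per 1000000 counts of the library. Ratios in a line use CPM + 0.1. DESeq2 1.42.0, limma 3.58.1 voom, other normalizations and filters, thinning to 16175077 counts and leaving out each line were alternatives. The edgeR, DESeq2 and voom fits of the 6 libraries were run on simulated counts with known fold changes. These counts had a single spread for all genes and the same fold change in every line. They therefore do not cover genes whose change differs between lines.

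The members and gene lists were chosen with earlier results of these data known. Genes are named if they are among the 14 largest changes in either direction that passed the threshold at 1 CPM or more on average and in 1 direction in all lines, if they rank among the first 4 of a list by adjusted p, if they are tested genes of the methylation, cytidine analog, sterol or T-cell marker lists, or if they rank among the first 6 by adjusted p in a test of lines or drugs. Some genes that this rule picks are left out of the text. Lists are given by counts and medians, with no set test. Planned promoter printing was for sterol genes holding the SRE-type motif, of which there were 0, so other windows are shown. An interferon response element and a CRE (TGACGTCA) were also searched, and stood in 2 and 0 of the 13 matched genes called higher against 4.376% and 2.249% of the table. Of all tested genes 72.58% matched the promoter table, under 80%, so motif shares are read against the whole table, and a share over tested genes covers matched genes only.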

Additional observations from a re-analysis of the deposited data

Results flagged for a closer look

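The dose slope differed between HH, PF382 and TLOm1 for 2508 of 15932 genes, by the test of the line by dose terms over the 9 treated libraries. The number was 1382 by DESeq2, 1365 without HH, 1591 without PF382 and 1326 without TLOm1. The spread in that test is scatter about straight dose lines and holds no replicate culture. Named genes of that kind are given with the adjusted p of the difference. Among sterol genes they were HMGCS1 (1.42e-05), FDPS (0.000356), DHCR7 (0.000357), INSIG1 (0.000744), CYP51A1 (0.0023), MSMO1 (0.00569), FDFT1, the squalene synthase (0.0102), PMVK (0.0128) and MVK, the mevalonate kinase (0.0174). Among stress, amino acid and NRF2-linked genes they were NQO1 (0.0156), SQSTM1 (0.0188), SLC6A9 (0.0264), SLC1A5 (0.0294) and SESN2 (0.0408). UHRF1 (0.0258), RRM1 (0.00305), SLC29A1 (0.00582) and DCK (0.0294) were the named genes of methylation and cytidine analogs. T-cell and interferon genes were CD4 (7.24e-05), PARP14 (0.0278) and KLF2 (0.0441). The smallest values belonged to SLC12A7, MAGEB2, CCNA1 and COL6A3 (4.97e-08 each), TIMP2 (9.4e-08) and MTX3 (1.04e-07). HH was dosed from 50 to 250 nM and the other lines from 125 to 500 nM, so line and dose range cannot be told apart in the slope of HH.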

How the results depend on the processing

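The number of genes called depended on how the spread was estimated. Against 14 higher and 5 lower, DESeq2 gave 316 and 239, limma voom 74 and 30, no filter on low counts 91 and 32, and the spread from all 9 treated libraries 766 and 656. Thinned counts gave 24 higher, and RLE normalization 3 lower. The fit without the replicate block of cell line gave 0 and 0. Leaving out each line in turn gave 1 to 13 higher and 0 to 3 lower. All 19 genes were shared with DESeq2, voom, thinned counts, the 9-library spread, either filter and upper quartile scaling, 15 with RLE and 16 with log2 dose. Without HH 9 of the 19 were shared, without PF382 6, without TLOm1 1 and without the block 0. Genes with a slope that differs between lines numbered 1382 by DESeq2 and 1326 to 1591 with a line left out. The drug difference gave 50 by DESeq2, and the steps 42 and 196. The cause was not tested.

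Of 1258 alternative values of 97 named genes, 1025 kept direction and side of the threshold, 67 lost and 146 gained the call, and 20 changed sign in 8 genes. PMVK was −0.017 with thinned counts, −0.014 by voom, −0.00065 with no filter, −0.018 without the block, and −0.13 to 0.19 with a replicate (line) left out. Over the same 3 choices DNMT1 ranged from −0.10 to 0.085 and UHRF1 from −0.23 to 0.050, above 0 without replicate 3 (TLOm1). SLC12A7 was −0.84 by voom, −1.10 without the block, and −0.54 to 2.21 with a line left out. CCNA1 ranged from −0.068 without HH to 4.90. COL6A3 was −0.0076 without the block and −0.0090 to 1.57 with a line left out, and TIMP2 −0.23 and −0.38 to 2.71. MTX3 was −0.18 by voom, −0.26 without the block and −0.37 to 0.77 with a line left out. Of 598 alternative list medians, 42 moved by more than the spread between lines, 11 of them under log2 dose, which gives the change per doubling.

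The smallest library (16175077 counts) limits genes near 0 at the lowest dose of HH.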
